A study of Mus musculus with 6 samples.

Results

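Cadherins are calcium-dependent adhesion proteins that join neighbouring cells, and the catenins tie the tails of the classical cadherins to the actin cytoskeleton. *Cdh16* (Ksp-cadherin) is a cadherin of kidney tubules, and its promoter drives the Cre recombinase of the Ksp/Cre line used here. The set described here held 10 genes, chosen by name: the cadherins *Cdh16*, *Cdh1*, *Cdh2*, *Cdh3*, *Cdh6*, *Cdh11* and *Cdh13*, the epithelial adhesion molecule *Epcam*, and the catenins *Ctnnb1* and *Ctnnd1*. All 10 were found, in 29 transcript rows out of 54721 rows, and the table held 23276 gene symbols in all.

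The RNA came from whole kidneys of 6 mice labelled as postnatal day 22. In all of them Ksp/Cre, which is active in tubule epithelium, deleted floxed exons from one allele of *Pkd1*, and the other allele carried the hypomorphic RC mutation in the germline. The 3 *Pkd1* F/RC SKO mice had no further change, and the 3 *Pkd1* F/RC DKO mice were also homozygous for the floxed miR-17∼92 cluster. The stroma, vessels and blood cells of these kidneys are not targeted by the Cre.

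The deposited table gives each transcript 1 abundance, a mean over all 6 kidneys in CPM (counts scaled to a common library size, not to length) on a log2 scale, and no values for individual mice. The other columns are the authors' own comparison of DKO with SKO and were not used, so no difference between SKO and DKO kidneys is given here, and neither the spread between mice nor the depth of a library is known. *Pkd1* and the cluster's host transcript *Mir17hg* had means of 31.8 and 4.21 CPM, but a mean over both groups cannot check their labels.

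Whole kidney RNA mixes cell types, so fewer cells of a type and less RNA per cell cannot be told apart. Markers of the nephron segments, podocytes, endothelium, stroma and macrophages were all present, with 36 of 36 genes of the 9 lists at 1 CPM or more. Their lowest value was 4.49 CPM for *Emr1*, a macrophage receptor. Markers of skeletal muscle, neurons and adrenal cortex were all under 1 CPM, the highest being *Stmn2* at 0.342 CPM. The 3 hepatocyte markers were detected, from 3.42 CPM for *Apob* to 54.2 CPM for *Cyp2e1*, and their source was not tested.

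The 6 mature miRNAs of the miR-17∼92 cluster considered here belong to 4 seed families, and a miRNA recognises a target mainly through its seed. Their sequences are shown because matches to these seeds were sought in the 10 genes. They lie on the forward strand of chromosome 14 (GRCm38.p6, RefSeq) between 115043684 and 115044496, and capitals mark the seed, bases 2 to 8. Within the cluster, the miR-17 and miR-19 families have 2 members each, and the 2 sequences share the seed and differ elsewhere. Members of these families encoded outside the cluster are not shown. The other strands of the same precursors are not shown either, and their seeds were not searched.
miR-17-5p: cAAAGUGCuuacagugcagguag
miR-20a-5p: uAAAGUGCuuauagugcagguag
miR-18a-5p: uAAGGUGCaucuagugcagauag
miR-19a-3p: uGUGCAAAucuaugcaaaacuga
miR-19b-3p: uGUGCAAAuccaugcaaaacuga
miR-92a-3p: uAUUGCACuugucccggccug

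All 10 genes had a mean of 1 CPM or more, against 55.9% of all gene symbols, and 8 of them had 5 CPM or more, against 42.4%. The symbols include non-coding genes. Of the 20167 symbols with a RefSeq mRNA of known length, 12499 had 1 CPM or more. The highest rows of the 10 genes ran from 3.04 CPM for *Cdh2* to 480.4 CPM for *Cdh16*. Levels of different genes were compared per kilobase (kb) of transcript, with the RefSeq row of highest CPM and the length of that transcript in GENCODE. On this scale the order was *Cdh16*, *Ctnnb1*, *Epcam*, *Cdh1*, *Ctnnd1*, *Cdh11*, *Cdh3*, *Cdh6*, *Cdh13* and *Cdh2*. The same order was obtained when coding length was used. The median over the 12499 genes with a length and at least 1 CPM was 4.06 CPM per kb, with 7 of the 10 genes above it and *Cdh6*, *Cdh13* and *Cdh2* below it.

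**Figure D1:**
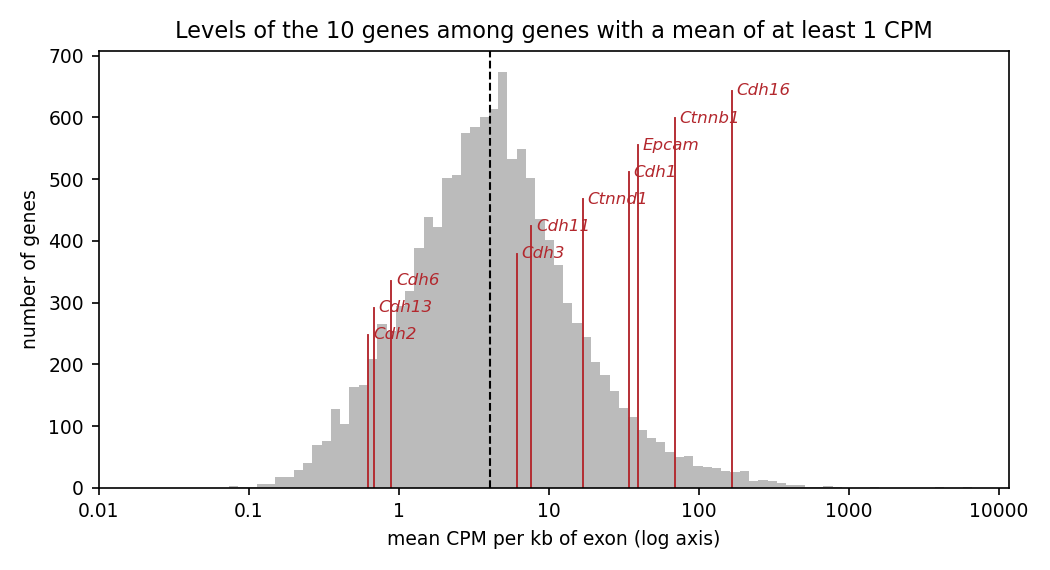
Mean CPM per kb of exon on a log axis against the number of genes whose mean reached 1 CPM, with a red line at each of the 10 genes and a dashed line at the median of 4.06 CPM per kb. *Cdh16*, at 167.2 CPM per kb, stands farthest to the right of the 10, and *Cdh2*, at 0.628 CPM per kb, farthest to the left.

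*Cdh16* encodes a cadherin with a short cytoplasmic tail that lacks the catenin-binding region of classical cadherins. In GRCm38, the assembly of mm10, GENCODE places it on chromosome 8, reverse strand, between 104601911 and 104624396. Its RefSeq transcript NM_007663, with 18 exons and 2874 bases, had a mean of 480.4 CPM, rank 38 of 23276 symbols. Per kb this was 167.2 CPM, 41.2 times the median gene and above the value of 99.1% of the genes with at least 1 CPM. The other 5 rows of *Cdh16* held 480.1, 459.9, 430.3, 376.5 and 258.2 CPM. The 3 RefSeq rows lay within 1.12 times of each other, and the lowest values came from rows assembled from the reads. No row of *Cdh16* was lower than the highest row of any other gene of the set.

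*Cdh1* encodes E-cadherin, the classical cadherin of epithelia. It lies on the forward strand of chromosome 8, from 106603351 to 106670246. Its single row, NM_009864, had a mean of 152.2 CPM and ranked 291 of 23276. Per kb its level was 34.4 CPM, so *Cdh16* was 4.86 times as abundant as *Cdh1*, or 3.36 times per kb of coding sequence. The 3′-UTR of *Cdh1* is 1631 bases long and holds 1 match to the miR-18a seed at bases 1104 to 1110 (chr8:106669719-106669725). Capitals in the site and in those further on mark the bases that pair with the seed.
Cdh1, miR-18a: gtggcggcgcGCACCTTtaagcccagc

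*Cdh3* encodes P-cadherin, another classical cadherin, and lies 46053 bases from *Cdh1* on the same strand. Its 3 rows were nearly equal, at 27.2, 27.0 and 27.0 CPM. Per kb *Cdh3* had 6.17 CPM, and *Cdh1* was 5.57 times as abundant. *Cdh2* encodes N-cadherin, the classical cadherin of neurons and mesenchyme that is also known from proximal tubules. It had 1 row, at 3.04 CPM or 0.628 CPM per kb. This was the lowest level of the set per kb, and also by CPM when each gene is taken by its highest row. The RefSeq row of *Cdh13* was lower by CPM, at 2.59 CPM. *Cdh1* was 54.7 times and *Cdh16* 266 times as abundant per kb as *Cdh2*.

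*Cdh6* and *Cdh11* encode type II classical cadherins. *Cdh6* (K-cadherin), known from the developing nephron, lies on the reverse strand of chromosome 15 from 13028701 to 13173675. It had a RefSeq row of 7.30 CPM and an assembled row of 12.6 CPM, which differ 1.72-fold. Per kb the RefSeq row gave 0.893 CPM, since the transcript is 8167 bases long and all but 2373 of these are non-coding. Its 3′-UTR of 5499 bases is the longest of the set, against a median of 961 over 21005 genes. It holds the only match to the miR-17 and miR-20a seed in the 10 genes, at bases 2234 to 2240 (chr15:13031960-13031966). A match to the miR-18a seed follows at bases 4726 to 4732 (chr15:13029468-13029474).
Cdh6, miR-17 and miR-20a: cacaagaactGCACTTTacacagttta
Cdh6, miR-18a: tatatctggaGCACCTTctgtaagctt

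*Cdh11* (OB-cadherin), a cadherin of mesenchymal cells, lies on chromosome 8 from 102632095 to 102785642. Its 3 rows held 45.2, 44.1 and 43.3 CPM. At 7.67 CPM per kb it was 1.24 times as abundant as *Cdh3* and 12.2 times as abundant as *Cdh2*. The 4 stromal markers *Pdgfrb*, *Pdgfra*, *Col1a1* and *Dcn* had means of 44.8 to 128.1 CPM in the same kidneys. *Cdh13* encodes T-cadherin, which is held in the membrane by a lipid anchor and has no cytoplasmic tail. Its gene spans 1041189 bases of chromosome 8, the longest of the set. The RefSeq row of *Cdh13* held 2.59 CPM and its assembled row 4.68 CPM, a difference of 1.81-fold, and the level per kb was 0.685 CPM.

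**Figure D2:**
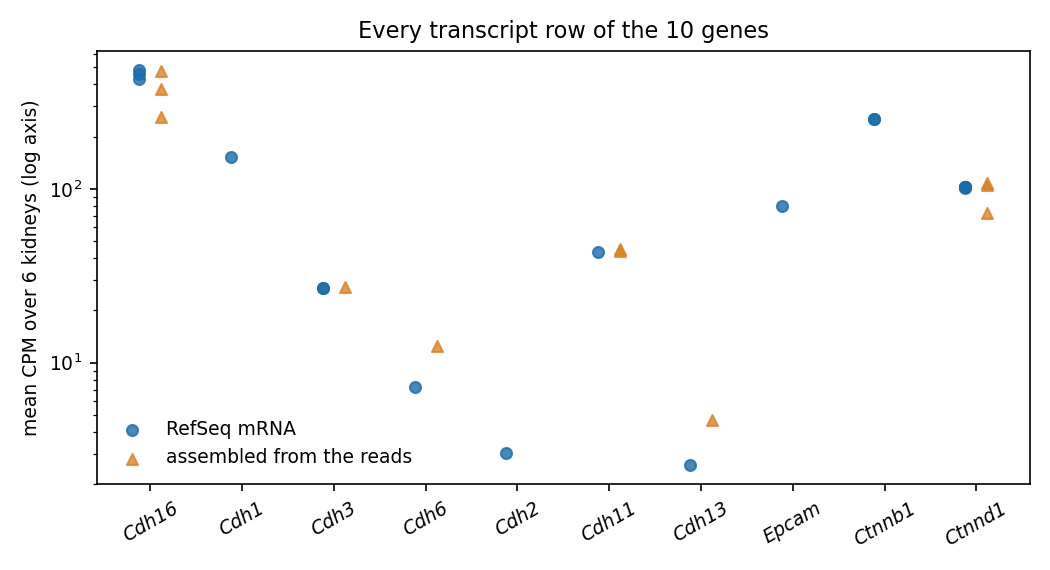
Mean CPM over the 6 kidneys on a log axis for all 29 transcript rows of the 10 genes, with circles for 18 RefSeq rows and triangles for 11 rows assembled from the reads. Rows of *Cdh16*, *Cdh6* and *Cdh13* spread by over 1.5 times, and the 2 rows of *Ctnnb1* lie on each other.

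*Epcam* encodes an epithelial surface glycoprotein that is not a cadherin. It lies on chromosome 17 from 87635979 to 87651129. Its single row had a mean of 79.9 CPM and ranked 833 of 23276. Its transcript is the shortest used, with 2040 bases, so that per kb *Epcam* reached 39.1 CPM and stood above *Cdh1* by 1.14 times. None of the 4 seeds had a match in its 3′-UTR of 660 bases.

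*Ctnnb1* encodes β-catenin, which binds the tail of classical cadherins and also serves as the transcriptional cofactor of Wnt signalling. It lies on chromosome 9 from 120929216 to 120960507. Its 2 RefSeq rows had means of 251.04 and 250.99 CPM, although their annotated lengths are 3623 and 2702 bases. Rows of a gene share exons, and they were therefore not summed. Per kb the first gave 69.3 CPM and the second 92.9 CPM, both between *Cdh16* and *Epcam*. The lengths are those of the linked GENCODE transcripts, and the transcript models that were counted may differ from them. The gap between these 2 values therefore reflects the lengths used and not a difference in counts. Other annotated genes, among them *Ulk4*, overlap *Ctnnb1*, as is true of 5 of the 10 genes (*Cdh2*, *Cdh11*, *Cdh13*, *Ctnnb1* and *Ctnnd1*), and whether reads were counted by strand is not given in the sources used here.

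*Ctnnd1* encodes p120-catenin, which binds the part of the cadherin tail next to the membrane and holds cadherins at the cell surface. It lies on chromosome 2 from 84600071 to 84650765. Of its 8 rows, 7 held 100.8 to 108.0 CPM and 1 assembled row held 72.7 CPM. Per kb its RefSeq rows gave 16.8 to 20.3 CPM. The 3′-UTR of *Ctnnd1* is 2821 bases long and holds 1 match to the miR-92a seed, at bases 1492 to 1498 (chr2:84601394-84601400).
Ctnnd1, miR-92a: tactatgtggGTGCAATtttttttaaa

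Of the 9 steps between neighbours in this order, the widest was from *Cdh3* to *Cdh6*, at 6.90 times, or 3.56 times with coding length. *Ctnnd1* exceeded *Cdh11* by 2.19 times, or 2.02 times with coding length. The steps that involve the catenins depend on the RefSeq row chosen and on the GENCODE length linked to it. *Cdh16* exceeded *Ctnnb1* by 1.58 to 2.41 times over the pairs of their RefSeq rows, *Ctnnb1* exceeded *Epcam* by 1.77 to 2.37 times, and *Cdh1* exceeded *Ctnnd1* by 1.70 to 2.04 times. With coding length these 3 steps were 1.80, 1.27 and 1.57 times. The remaining steps were small per kb of exon. They were 1.14 times from *Epcam* to *Cdh1*, 1.24 times from *Cdh11* to *Cdh3*, 1.30 times from *Cdh6* to *Cdh13* and 1.09 times from *Cdh13* to *Cdh2*. With coding length they were 1.47, 1.65, 2.54 and 1.08 times in the same order. On that scale the steps from *Cdh11* to *Cdh3* and from *Cdh6* to *Cdh13* were thus over 1.5 times. With no value per kidney, none of these steps has an error from replicates, and whether any pair of neighbours differs beyond the spread between mice is not known.

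The 5 members with a classical catenin-binding tail, *Cdh1*, *Cdh2*, *Cdh3*, *Cdh6* and *Cdh11*, summed to 49.7 CPM per kb, of which *Cdh1* made up 69.1%. *Ctnnb1* alone was 1.39 times this sum and *Ctnnd1* was 0.338 times it. *Cdh16* was 3.36 times the sum of those 5 genes. These ratios depend on the choices made. They used exonic length and 1 RefSeq row per gene, and the second *Ctnnb1* row, at 92.9 CPM per kb, was not used. They were not recomputed with coding length, which moved most levels per kb. *Cdh5*, a cadherin outside the set at 11.1 CPM per kb, was not in the sum.

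The table held 23 genes named *Cdh* with a number, 7 of them in the set. Of the other 16, only *Cdh5* (VE-cadherin, the cadherin of endothelium) had a mean of 1 CPM or more, at 44.2 CPM or 11.1 CPM per kb, and 13 were under 0.3 CPM. *Cdh7* had the lowest value, 0.0263 CPM, which is the floor of the whole table and is shared by 4617 rows. Deposited values include a small prior count, so those at or just above this floor are not measured levels. *Cdh17*, a close relative of *Cdh16* and a cadherin of intestine, was at 0.0850 CPM. Per kb, *Cdh16* made up 72.9%, *Cdh1* 15.0% and *Cdh2* 0.274% of the sum over all 23 genes, as the plot of the *Cdh* genes shows. These shares used exonic length and were not recomputed with coding length. Coding length raised *Cdh1* from 34.4 to 57.3 CPM per kb, but *Cdh16* only from 167.2 to 192.7 CPM per kb.

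**Figure D3:**
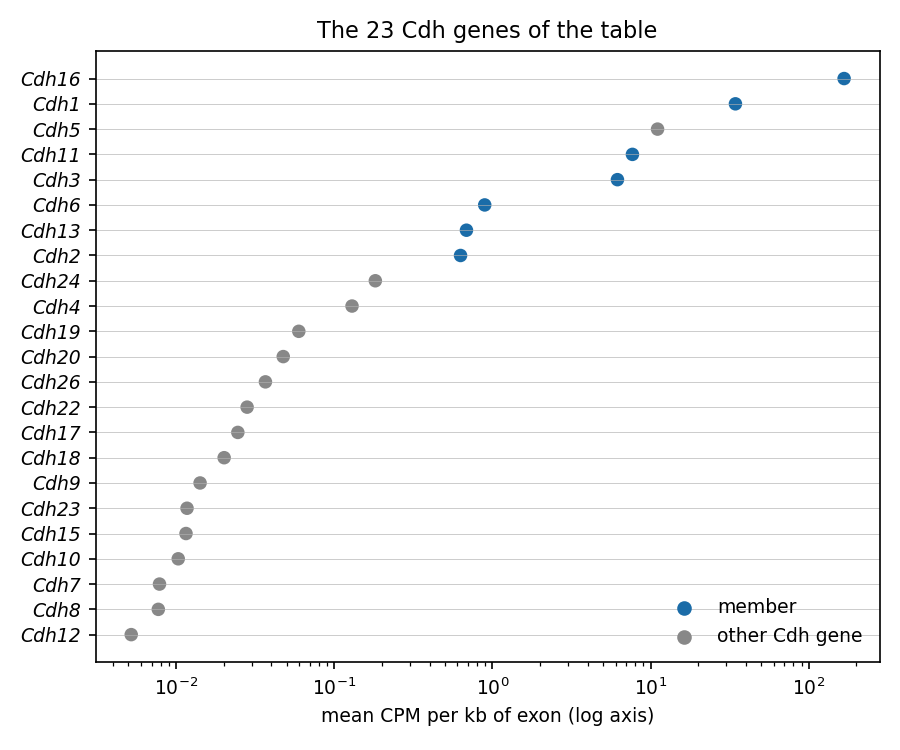
Mean CPM per kb of exon on a log axis for the 23 *Cdh* genes, members in blue and others in grey. *Cdh16*, at 167.2, and *Cdh1*, at 34.4, lie above the rest, *Cdh5* follows at 11.1, and 15 genes outside the set lie below all members.

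Genes that build the junction around these proteins were described from 5 lists, which also hold repressors of *Cdh1*. Of their 46 genes, 37 had a mean of 1 CPM or more, 80.4% against 55.9% of all symbols, which include non-coding genes. In the adherens junction list 10 of 12 genes passed, from *Ctnna3* (0.134 CPM), an α-catenin of heart and testis, to *Ctnna1* (216.1 CPM, 57.9 CPM per kb), the α-catenin of epithelia that links β-catenin to actin. *Ctnna1* thus stood between *Ctnnb1* and *Epcam* per kb. All 8 tight junction genes passed, from *Tjp3* at 8.39 CPM to *Tjp1* (ZO-1, a scaffold under the junction) at 86.9 CPM. All 10 polarity genes passed as well, from *Llgl1* at 10.5 CPM to *Dlg1* at 66.7 CPM.

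Desmosomes are built from a further branch of the cadherin family, the desmogleins and desmocollins. Of the 10 desmosome genes, 5 had 1 CPM or more, a share near the 55.9% of all symbols. *Dsp*, which encodes the plaque protein desmoplakin, was the highest at 75.4 CPM (7.86 CPM per kb), and *Dsc1* was at the lowest value of the table. Among the desmosomal cadherins, *Dsg2* and *Dsc2*, the forms of simple epithelia, had 19.6 and 6.61 CPM, whereas the 4 others listed were under 0.1 CPM.

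Of 6 transcription factors known to repress *Cdh1*, 4 had 1 CPM or more, which with so few genes is also near the 55.9% of all symbols. *Zeb2* was the highest at 50.6 CPM (8.99 CPM per kb) and *Twist2* the lowest at 0.118 CPM. Whether any of these factors acted on a gene of the set was not tested.

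**Figure D4:**
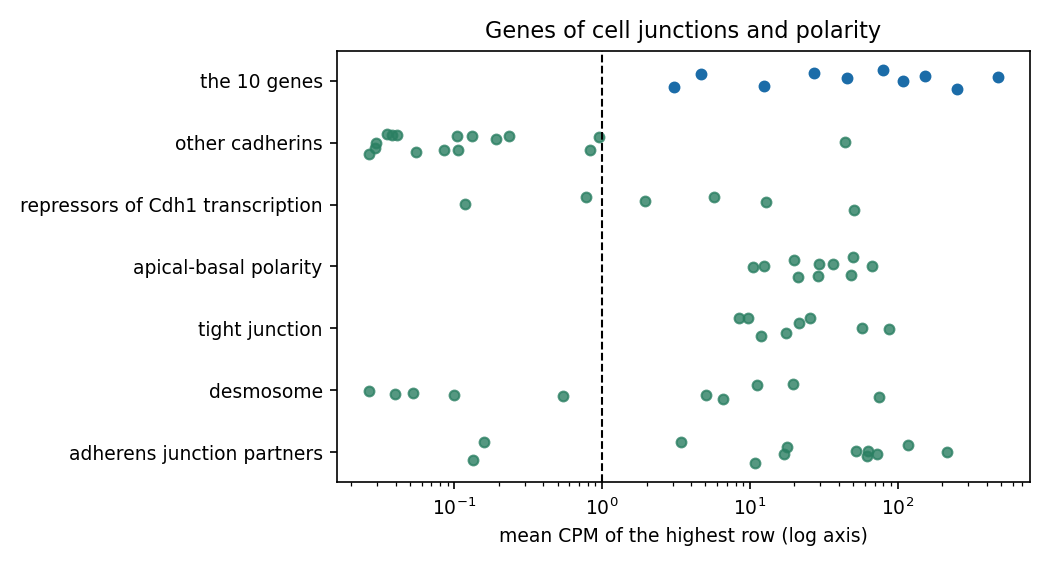
Mean CPM of the highest row of each gene on a log axis, for the 10 genes in blue, and for the 5 lists of junction, polarity and transcription factor genes and the other cadherins in green, with a dashed line at 1 CPM. All polarity and tight junction genes lie to the right of the line, and 15 of the 16 other cadherins to its left.

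The search for seeds of the miR-17∼92 cluster used the longest 3′-UTR of each gene in GENCODE. It found 4 matches in 3 of the 10 genes, those printed above for *Cdh1*, *Cdh6* and *Ctnnd1*, and none in the other 7. Of all 21005 genes with a 3′-UTR, 28.8% held a match to at least 1 of the 4 seeds, and 34.2% of those with at least 1 CPM did. GCACTTT, the match to miR-17 and miR-20a, was present in 1 of the 10 genes and in 11.7% of all genes. GCACCTT, for miR-18a, was present in 2 of the 10 and in 7.82% of all. TTTGCAC, for miR-19, was present in 0 of the 10 and in 11.4% of all. GTGCAAT, for miR-92a, was present in 1 of the 10 and in 6.56% of all. Among genes with at least 1 CPM, the 4 shares were 14.9%, 9.56%, 13.4% and 7.72% in the same order. The letters were sought on the transcript strand only. *Cdh16* has the shortest 3′-UTR of the set, 291 bases, and no match.

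**Figure D5:**
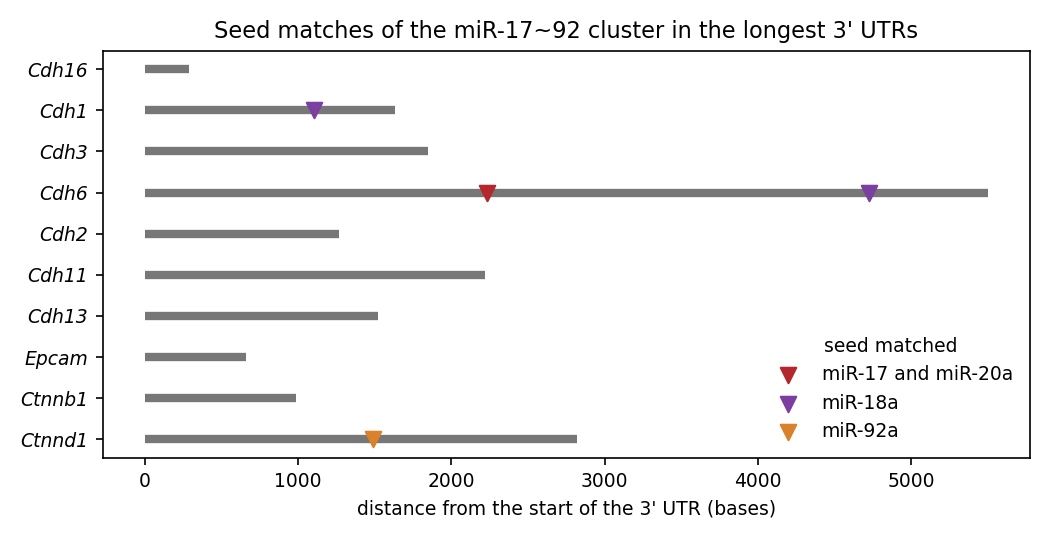
Distance from the start of the 3′-UTR in bases, with a grey bar for the longest annotated 3′-UTR of each of the 10 genes and triangles at matches to the seeds of the cluster. *Cdh6* has the longest bar, 5499 bases, with 2 matches, *Cdh1* and *Ctnnd1* have 1 each, and the other 7 have none.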

How the data were processed

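Total RNA of 6 kidneys (3 SKO, 3 DKO) was sequenced with stranded libraries. The authors trimmed single-end reads, mapped them to mm10 with TopHat and the iGenomes annotation, and discarded poorly mapped alignments. The submitters' processing notes also list Cufflinks, featureCounts (Subread 1.4.6) and, for the comparison made by the authors, edgeR 3.2.4, without saying how rows were counted or whether strand was used. The value deposited by the authors for 54721 transcripts is the average CPM over all kidneys from edgeR, on a log2 scale. It includes a small prior count. The 4 other columns of the deposited table hold the authors' own comparison (fold change, likelihood ratio statistic, p-value and adjusted p-value) and were not used. Depth per sample is unknown, so no interval was set.

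Members were matched by symbol. CPM is 2 to the power of the deposited value. A gene was represented by its highest row, and per kb by its highest RefSeq mRNA row, because assembled rows have no length here. GENCODE M21 (GRCm38, the assembly of mm10) gave lengths for 96.6% of 27012 RefSeq mRNA rows. Seeds were sought in 3′-UTRs of protein-coding transcripts. No test was made. The text names all members and, by CPM, the highest and lowest gene of the other cadherins and of each junction list. Most cell type markers are not named. *Cdh17*, *Cdh8*, *Cdh15*, *Dsg2*, *Dsc2*, *Ulk4* and all 4 stromal genes were named after their values were seen. A further planned list is not reported here. Members and lists were chosen with earlier results of these data known. Helper functions were tested on simulated data. Python 3.11.15, pandas 2.3.3, numpy 2.4.6 and matplotlib 3.10.9 were used.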

Additional observations from a re-analysis of the deposited data

How the results depend on the processing

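Levels have no replicate spread here, so a value was taken as moved when it changed by over 1.5 times. Of 102 alternatives over 34 results, 86 stayed within that range and 16 moved. Coding length raised the levels per kb of 9 of the 10 genes by over 1.5 times, most for *Cdh6* (3.07 CPM per kb), with no change in their order. With RefSeq rows only, *Cdh6* fell to 7.30 CPM, *Cdh13* to 2.59 CPM and the spread of the *Cdh16* rows to 1.12 times. With no threshold, 15 of the 16 other *Cdh* genes lay above the floor of the table, against 1 at 1 CPM. Values just above that floor are not measured levels. With the shorter seed, bases 2 to 7, 3 members matched miR-17 and miR-20a (*Cdh6*, *Cdh2* and *Cdh11*, against 36.9% of all genes). For miR-92a, 2 members matched the shorter seed (*Cdh6* and *Ctnnd1*, against 24.6%). Among genes with at least 1 CPM, these shares were 42.5% and 26.7%. When transcripts of any type were searched, a choice made after the data were seen, 2 members matched miR-92a, *Ctnnb1* being added, against 6.90% of all genes. The comparison of lowest and highest RefSeq rows per kb was also added then. Leaving out a kidney was not run, because the column used holds a mean over all kidneys. No paired analysis was possible because of the same mean.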

Other observations

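The position of the *Cdh* genes was looked at after their levels were seen. The 5 *Cdh* genes with the highest mean, *Cdh16*, *Cdh1*, *Cdh11*, *Cdh5* and *Cdh3*, all lie on mouse chromosome 8, both by CPM and by CPM per kb. That chromosome holds 8 of the 23 *Cdh* genes of the table. The other 3 are *Cdh13*, at 4.68 CPM, and *Cdh8* and *Cdh15*, at 0.0293 and 0.0376 CPM. Levels within this group differed widely. *Cdh16*, from 104601911 to 104624396, was 15.1 times as abundant per kb as *Cdh5*, from 104101625 to 104144511.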
